A study of Mus musculus with 12 samples.

Results

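The miRNAs described here come from the imprinted Dlk1-Dio3 region of mouse chromosome 12 and were examined in embryonic fibroblasts. The members were 34 miRNA names fixed by name, and every list entry that carried one of them, whatever its arm, star or copy number, was taken. Of these names 32 were listed in at least 1 of the 3 fibroblast libraries, as 41 entries among 360 entries listed in any of them. miR-410 and miR-495 were listed in none of the 12 libraries of the study.

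The libraries hold gel-selected small RNAs of 19 to 30 nt, cloned through the phosphate and hydroxyl ends that RNase III cleavage leaves, from 4 mouse cell types in 3 genotypes with 1 library each. The mouse embryonic fibroblasts (MEF) were derived from E14.5 embryos that carried Rosa26-CreER, a Cre recombinase expressed from a ubiquitous locus and activated by a ligand of the oestrogen receptor. The 3 groups were Rosa26-CreER (control), Drosha Rosa26-CreER and Dicer Rosa26-CreER, all on a backcrossed C57BL/6 background, so the control cells carried the recombinase too. The labels also attach an age of 6 to 7 weeks to these embryo-derived cells, and neither the Cre induction nor the form of the Drosha and Dicer alleles nor the number of embryos is stated in the labels. The T cell libraries came from sorted cells of mice aged 6 to 7 weeks: DN3 thymocytes with Lck-cre, and CD4+CD25+ regulatory T cells (Treg) and activated CD4+ T cells with CD4-cre, each also as control (Cre alone), Drosha and Dicer. The lists measure neither Drosha nor Dicer mRNA, and how complete each deletion was could not be checked.

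Most miRNAs of the Dlk1-Dio3 region are processed from long non-coding transcripts (Meg3, the transcript antisense to Rtl1, Rian and Mirg) that are expressed from the maternally inherited chromosome. They are abundant in embryo, placenta and brain and in cells of mesenchymal origin, and are little expressed in most adult blood cells. Drosha, a nuclear RNase III, frees each hairpin from the primary transcript, and Dicer, a cytoplasmic RNase III, cuts the hairpin into a duplex of which 1 or both strands are loaded into Argonaute. Bases 2 to 8 of the loaded strand, the seed, direct target recognition.

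RefSeq (GRCm38.p6) held a hairpin for all 34 names, all on the plus strand of chromosome 12 and spread over 163.6 kb from miR-493 to miR-410. By GENCODE M21, 5 hairpins (miR-431, miR-433, miR-127, miR-434 and miR-136) lie opposite the coding sequence of Rtl1, a retrotransposon-derived gene of placenta and muscle, and are called the Rtl1-antisense miRNAs here. miR-493, miR-337 and miR-665 lie on the Meg3 side of Rtl1, called upstream here, and miR-370 lies in an intron of Rian. The other 25 names form the miR-379/miR-410 cluster, in which miR-382, miR-134, miR-377, miR-369 and miR-410 overlap exons of Mirg, miR-154, miR-541 and miR-409 lie in its introns, and those from miR-379 to miR-539 overlap no annotated host of the classes searched. The most abundant hairpin, miR-127, is at chr12:109592846-109592915, and miR-541, the second, is at chr12:109742409-109742498.

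The mature strands of the 4 most abundant names are shown first, since they make up most of the signal described below. Seeds (bases 2 to 8) are in capitals, and all sequences are RefSeq's, written 5′ to 3′ in RNA letters. The fibroblast lists name an entry mostly without its arm, or with a star for the strand regarded as the passenger. Only 10 of the 65 arm names in RefSeq equal a deposited entry, and an entry without an arm was not assigned to one, so both strands are printed.
miR-127-5p: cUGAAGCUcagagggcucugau
miR-127-3p: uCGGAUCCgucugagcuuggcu
miR-541-5p: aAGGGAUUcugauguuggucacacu
miR-541-3p: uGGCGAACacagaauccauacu
miR-134-5p: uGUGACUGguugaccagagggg
miR-134-3p: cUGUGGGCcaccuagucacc
miR-382-5p: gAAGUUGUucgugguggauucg
miR-382-3p: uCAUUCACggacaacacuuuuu

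The strands below belong to the members that differed most between the libraries. miR-409, miR-665 and miR-370 had low values in the Drosha library, and miR-136, miR-379 and miR-376a had high ones.
miR-409-5p: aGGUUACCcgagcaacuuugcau
miR-409-3p: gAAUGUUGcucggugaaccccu
miR-665-5p: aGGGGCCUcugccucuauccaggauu
miR-665-3p: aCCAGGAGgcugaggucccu
miR-370-5p: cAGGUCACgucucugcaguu
miR-370-3p: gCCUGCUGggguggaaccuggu
miR-136-5p: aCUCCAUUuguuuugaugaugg
miR-136-3p: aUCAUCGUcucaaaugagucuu
miR-379-5p: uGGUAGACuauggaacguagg
miR-379-3p: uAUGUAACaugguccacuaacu
miR-376a-5p: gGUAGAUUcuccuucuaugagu
miR-376a-3p: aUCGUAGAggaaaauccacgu

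The 65 strands carried 62 distinct seeds. Beside miR-379-3p, these strands are the ones that share a seed within the region: miR-411-3p has the seed of miR-379-3p, miR-376b-5p that of miR-376c-5p, and miR-410-5p that of miR-494-5p. Of the 65 strands 24 begin with U, 25 with A, 9 with G and 7 with C.
miR-411-3p: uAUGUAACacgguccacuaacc
miR-376b-5p: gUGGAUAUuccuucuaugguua
miR-376c-5p: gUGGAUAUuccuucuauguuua
miR-410-5p: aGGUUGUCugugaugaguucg
miR-494-5p: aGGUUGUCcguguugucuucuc

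The lists give 1 value per mature miRNA, scaled to about 1000000 per library and rounded. Their totals were 1000833 (control), 994854 (Drosha) and 999895 (Dicer). Low values rose in fixed steps, which put 1 read at 3.64, 12.9 and 3.70 and the depth at about 275000, 77400 and 270000 reads. The steps made 100% of the values up to 1000 whole in control and Drosha, within 0.6, and 83.5% in Dicer, so read numbers for Dicer are approximate. The lowest listed value was 11 in control and Dicer (3 reads) and 13 in Drosha (1 read), and a miRNA that was not listed lies below that. With 1 library per group no difference has a replicate check and no test between groups was possible. All intervals are 95% exact intervals on the implied reads and cover counting error only. PCR reads without molecular identifiers are not independent molecules. The fibroblast label was checked against preset lists: all 8 fibroblast and mesenchymal miRNAs were listed in each MEF library, at 57.8% (control), 56.5% (Drosha) and 60.8% (Dicer) of the values, most of it miR-22. The epithelial list was at 0 in control and Drosha and had 1 of 6 members at 11 in Dicer. The lymphoid and myeloid list had 3, 2 and 3 of 4 members at 0.818%, 0.643% and 0.648%, nearly all of it miR-181a. miR-150, a miRNA of mature lymphocytes, was not listed. The neural list had 2 of 2 members in each library, at 0.00799%, 0.00523% and 0.0084%. The muscle list had 2, 3 and 3 of 3 members, at 0.0145%, 0.0118% and 0.0195%. The erythroid list had 1 of 3 members in each library, at values of 80, 26 and 67. The endothelial list, miR-126 alone, was at 26, 0 and 19.

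Together the Dlk1-Dio3 miRNAs took 6.41% of the control fibroblast library (6.32 to 6.50%), 4.15% of the Drosha library (4.01 to 4.29%) and 5.41% of the Dicer library (5.32 to 5.49%). Values of single entries in control ran from 11 to 24331, and 11 of the 38 listed entries reached 1000. The signal was concentrated: the 3 leading names held 68.0% of the members' sum in control, 80.2% in Drosha and 69.6% in Dicer. In control the Rtl1-antisense miRNAs held 2.88% of the library and the miR-379/miR-410 cluster 3.03%. In the Drosha library these shares were 2.59% and 1.44%, and in the Dicer library 2.53% and 2.42%. The order of the 3 libraries depends on the denominator: with miR-22 and miR-320 left out of the total, the members' share was 14.9% in control, 16.5% in Drosha and 13.5% in Dicer. The upstream miRNAs held 0.395%, 0.105% and 0.366% in control, Drosha and Dicer.

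miR-127, which is fully complementary to Rtl1 mRNA and directs its cleavage, led in every fibroblast library. Its entry stood at 24331 in control, 21744 in Drosha and 21937 in Dicer, which ranked it 3 of 314, 4 of 279 and 3 of 303 entries. miR-541, from the distal end of the cluster, followed at 11800, 5556 and 9089. These were the first and second members in all 3 libraries. miR-134, known for restraining dendritic spine growth in neurons, stood at 5509 in control, 1693 in Drosha and 4811 in Dicer. miR-382, whose hairpin lies 292 bases upstream of that of miR-134, stood at 4967, 3798 and 3700. The order of these 2 differed between libraries, with miR-134 the higher in control and Dicer and miR-382 the higher in Drosha. Their counting intervals in control, 5235 to 5794 and 4707 to 5238, overlapped by a few units.

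**Figure D1:**
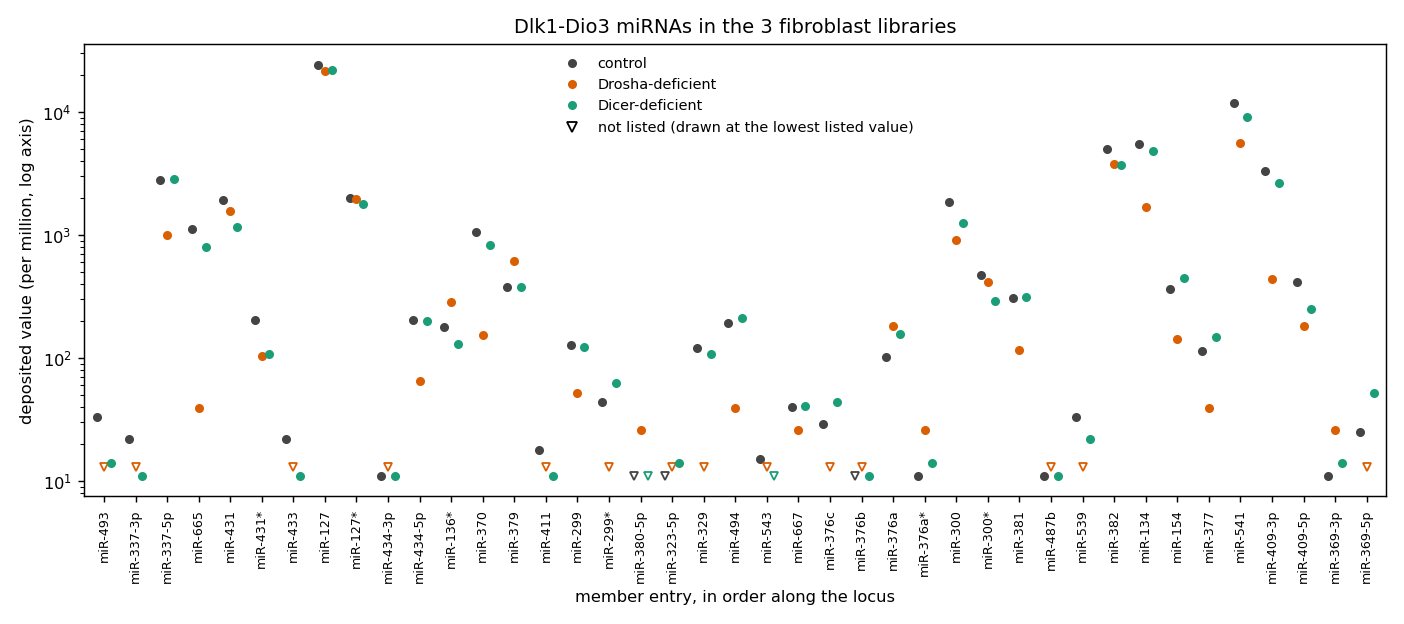
Deposited values (scaled to about 1000000 per library, log axis) of the 41 member entries, in order along the locus, in the control, Drosha and Dicer fibroblast libraries, 1 point per library. miR-127 leads in all 3 libraries at 24331, 21744 and 21937, while miR-665 is at 1109 in control and 39 in Drosha, and open triangles mark entries that a library does not list.

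The next members by control value were miR-409-3p at 3324, miR-337-5p at 2793, miR-127* at 1982, miR-431 at 1938, miR-300 at 1851, miR-665 at 1109, miR-370 at 1058 and miR-300* at 476. Within this order the counting intervals of miR-127* (1819 to 2155), miR-431 (1777 to 2110) and miR-300 (1694 to 2019) overlapped, as did those of miR-665 (988 to 1241) and miR-370 (940.1 to 1187), so the order within these 2 sets is not resolved. At the low end 12 of the 38 control entries rested on fewer than 10 reads. In control 26 entries had at least 10 reads, against 16 in Drosha and 28 in Dicer.

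The comparison of Drosha with control fibroblasts bears on the nuclear cut only through changes relative to other entries. Each library is scaled to its own total, so a loss shared by all miRNAs does not show. A ratio near or above the median therefore does not mean independence from Drosha. Ratios are log2 ratios of the values with 0.5 added, set against the median entry. That median is taken over entries present in both lists whose 2 values sum to 50 or more. It lay at -0.94 log2 units, and in the same Drosha library miR-320, a short hairpin that can bypass Drosha, stood at 193941 against 11782 in control. As a group the members lay close to the other entries. Their median was -0.20 over 24 compared entries, against 0.03 for the 202 other entries and 0 for all 226. 4 members were at least 1 log2 unit lower and 3 at least 1 log2 unit higher, which is 16.7% and 12.5% of those compared. Over all 226 entries 15.9% were that much lower and 19.9% that much higher, and 35.8% were past that size in either direction, so the members' counts lay near the background. Of the 39 member entries listed in either library 26 were listed in both, against 248 of 345 among all entries. The filter took out 2 of these 26 members (miR-376a* and miR-369-3p).

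The members did not move together. miR-665 was the lowest: its value was 1109 in control and 39 in Drosha, against 792 in Dicer. Relative to the median entry this was -3.87 log2 units (interval -6.19 to -2.34), and it rests on about 3 reads in the Drosha library against 305 in control. miR-409-3p stood at 3324 in control, 439 in Drosha and 2637 in Dicer, a ratio of -1.98 (-2.52 to -1.49) in Drosha on 34 reads. miR-370 stood at 1058, 155 and 830, a ratio of -1.83 (-2.80 to -1.01) on 12 reads. The fourth, miR-494, stood at 193, 39 and 211, and its ratio of -1.35 (-3.70 to 0.25) rests on 3 reads and was not resolved by counting error. These 4 come from separate places, the upstream group (miR-665), the Rian intron (miR-370) and the proximal (miR-494) and distal (miR-409) parts of the miR-379/miR-410 cluster.

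The 3 members with higher ratios were also higher in plain value, that is, as scaled to library totals. miR-136* was 178 in control, 284 in Drosha and 130 in Dicer, a ratio of 1.61 (0.82 to 2.36) in Drosha. miR-379, the first hairpin of its cluster, was 375, 620 and 378, a ratio of 1.66 (1.14 to 2.17). miR-376a, whose precursors are known targets of A-to-I RNA editing in brain, was 102, 181 and 156, a ratio of 1.76 (0.73 to 2.74). In the Dicer library miR-136* was below its control value, miR-379 was level with it and miR-376a was above it. The Drosha values of these 3 rest on 22, 48 and 14 reads. Counting intervals of the plain values in control and Drosha overlapped for miR-136* (132 to 236 and 178 to 430). They also overlapped for miR-376a (67.7 to 147 and 98.9 to 303), so these 2 plain differences are not resolved. For miR-379 they did not overlap (306 to 454 and 457 to 822).

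**Figure D2:**
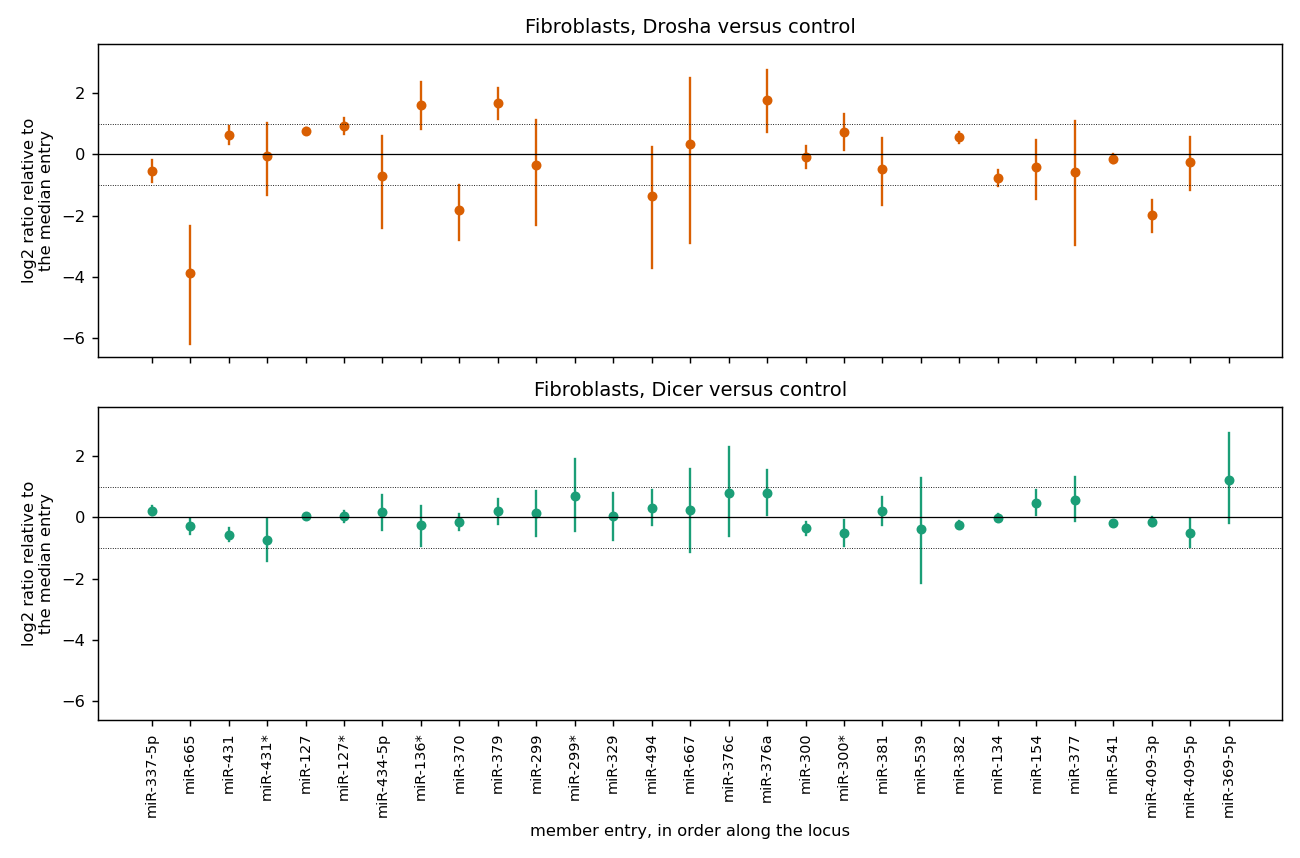
Log2 ratio of each member entry relative to the median entry, for Drosha against control (top) and Dicer against control (bottom), in order along the locus, with points for the ratio and bars for the 95% exact interval from implied reads (counting error only). In the top panel miR-665 lies at -3.87 and miR-376a at 1.76, while in the bottom panel only miR-369-5p lies beyond the dotted lines at 1 log2 unit, at 1.23.

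Between these extremes lay most of the abundant members. miR-134 had a ratio of -0.76 (-1.03 to -0.51) and miR-337-5p, at 2793 in control and 1008 in Drosha, one of -0.53 (-0.89 to -0.20). miR-541 was at -0.15 (-0.30 to just under 0) and miR-300 at -0.08 (-0.45 to 0.29). miR-382 was at 0.55 (0.36 to 0.73), miR-431 at 0.64 (0.34 to 0.93), miR-127 at 0.78 (0.70 to 0.85) and miR-127* at 0.93 (0.67 to 1.20). The sign of the last 4, and of miR-300* (476 in control, 413 in Drosha, ratio 0.73), depends on the scaling, since their plain values were at or below control. Scaled by library totals instead, 14 of the 24 members were at least 1 log2 unit lower and 0 higher, against 44.7% lower and 10.6% higher among all 226 entries.

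By place, the Rtl1-antisense entries had a median ratio of 0.71 over 6 compared entries, from -0.70 (miR-434-5p, on 5 reads in Drosha) to 1.61 (miR-136*). The miR-379/miR-410 cluster had a median of -0.24 over 15 entries and the 2 upstream entries were at -0.53 and -3.87. Pairs were formed of hairpins that follow each other along the locus among those listed in all 3 fibroblast libraries. Other members were skipped, such as miR-433 between miR-431 and miR-127, and miR-380, miR-323 and miR-329 between miR-299 and miR-494. Within pairs the difference in this ratio (arms summed) ran from 0.17 log2 units (miR-154 and miR-377) to 4.46 (miR-665 and miR-431). Close values were also found for miR-431 and miR-127 (0.20 apart), miR-134 and miR-154 (0.35), miR-377 and miR-541 (0.44) and miR-299 and miR-494 (0.58). In these sums an arm that Drosha does not list, such as miR-299*, counts as absent. The ratio of miR-299 is thus -0.77 with arms summed and -0.34 for its listed entry, which lies further from miR-494 (-1.35). In Drosha miR-377, miR-494 and miR-665 rest on 3 reads each, miR-299 on 4 and miR-154 on 11. Closeness in pairs that include them is not resolved, and the sizes of the differences with miR-665 are approximate. Other pairs differed by more. miR-382 (0.55) and miR-134 (-0.76) lie 292 bases apart in exons of Mirg, and miR-337 (-0.54, arms summed) and miR-665 (-3.87) lie 428 bases apart. miR-541 (-0.15) and miR-409 (-1.65, arms summed) are separated by 659 bases. Spearman's rho was taken over the 19 hairpins listed in all 3 libraries with a control value of at least 100. For the Drosha ratio it was -0.04 with position along the locus and 0.02 with the control level. It was -0.33 with the GC content of the hairpin and -0.45 with hairpin length. For the Dicer ratio rho was 0.19 with position, -0.56 with the control level, -0.45 with GC content and -0.37 with length. The relation to GC content and length was thus not particular to the Drosha ratio. These correlations are across hairpins of the same libraries and are descriptions only.

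In the Drosha library 14 member entries were not listed, and 12 of them were listed in control. Of the 38 member entries in control 26 were listed in Drosha, and of all 314 control entries 248 were. For 11 of these 12 the control value, moved by the median change, would have given fewer than 2 reads in the Drosha library, so a missing entry was not detectable as a difference at this depth. The exception was miR-329, at 120 in control and 108 in Dicer, for which 4.85 reads would be given. The others were miR-299* (44 in control and 63 in Dicer), miR-493 (33 and 14), miR-539 (33 and 22), miR-376c (29 and 44), miR-369-5p (25 and 52), miR-337-3p (22 and 11), miR-433 (22 and 11), miR-411 (18 and 11), miR-434-3p and miR-487b (11 and 11 each), and miR-543 (15 in control, not listed in Dicer). miR-323-5p (14) and miR-376b (11) were listed in Dicer alone and miR-380-5p (26, or 2 reads) in Drosha alone. No fold against the Drosha library was computed for these entries.

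The comparison of Dicer with control fibroblasts bears on the cytoplasmic cut with the same limit. Relative to the other entries the members of the Dicer library lay near their control values, with 28 of the 29 compared entries at most 0.80 log2 units from the median entry. Their median ratio was 0.04 over these 29 entries, against 0.00 for the 208 others, and 0 members were at least 1 log2 unit lower and 1 higher. Among all 237 entries 1.69% were that much lower and 2.53% that much higher, or 4.22% in either direction. The median entry itself lay at -0.19 log2 units. Of 40 member entries listed in either library 37 were listed in both, against 283 of 334 among all entries. The filter took out 8 of these 37 members. The 1 member was miR-369-5p, at 25 in control and 52 in Dicer, whose ratio of 1.23 (-0.19 to 2.77) rests on 7 and 14 reads and was not resolved by counting error. Each library is scaled to its own total, and a loss shared by all miRNAs does not show in such values.

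Smaller differences were larger than counting error for several members. The same held for entries outside them, such as miR-143 (0.36, 0.29 to 0.43) and miR-298 (-0.47, -0.64 to -0.30). The share of all 237 compared entries with such intervals was not computed, so the differences below do not set the members apart. miR-431, which like miR-127 is antisense to Rtl1, was 1938 in control and 1152 in Dicer, a ratio of -0.56 (-0.77 to -0.36). miR-431* was 204 and 108, a ratio of -0.72 (-1.43 to -0.06). Both strands of miR-300 were lower, miR-300 at 1851 and 1263 (-0.36, -0.56 to -0.16) and miR-300* at 476 and 292 (-0.51, -0.93 to -0.10), and miR-409-5p was at 411 and 252 (-0.51, -0.97 to -0.07). miR-665 (-0.30, -0.55 to -0.04), miR-382 (-0.24, -0.35 to -0.12), miR-541 (-0.19, -0.26 to -0.11) and miR-409-3p (-0.14, -0.29 to just under 0) were lower by less. At the other end miR-376a (0.80, 0.08 to 1.55), miR-154 at 364 and 444 (0.48, 0.08 to 0.88) and miR-337-5p (0.22, 0.07 to 0.36) were higher. The ratios of miR-299* (0.70, -0.43 to 1.92), miR-377 at 113 and 148 (0.58, -0.13 to 1.31) and miR-494 (0.32, -0.24 to 0.89) were not resolved by counting error. miR-127 (0.04, -0.01 to 0.09) and miR-134 (-0.01, -0.11 to 0.10) were at the median entry.

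The direct comparison of Dicer with Drosha fibroblasts shares its libraries with the comparisons above and is given as values only. The median of the members was 0.03 over 24 entries, and 4 were at least 1 log2 unit lower in Dicer and 5 higher, or 16.7% and 20.8%. Among all 221 entries 19.5% were that much lower and 19.5% that much higher, or 38.9% in either direction. The median entry itself lay at 0.65 log2 units, and scaled by library totals 1 member was lower and 11 were higher, against 11.8% and 40.3% of all entries. Lower in Dicer were miR-136* (-1.77), miR-379 (-1.36), miR-300* (-1.15) and miR-431 (-1.10), with miR-376a at -0.86 (-1.77 to 0.12). Higher were miR-665 (3.68), miR-409-3p (1.94, 1.44 to 2.48), miR-494 (1.77), miR-370 (1.77, 0.94 to 2.75) and miR-377 (1.26, -0.36 to 3.62, on 3 reads in Drosha). miR-154 (0.99), miR-434-5p (0.97), miR-134 (0.86) and miR-337-5p (0.85) lay just under that size.

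**Figure D3:**
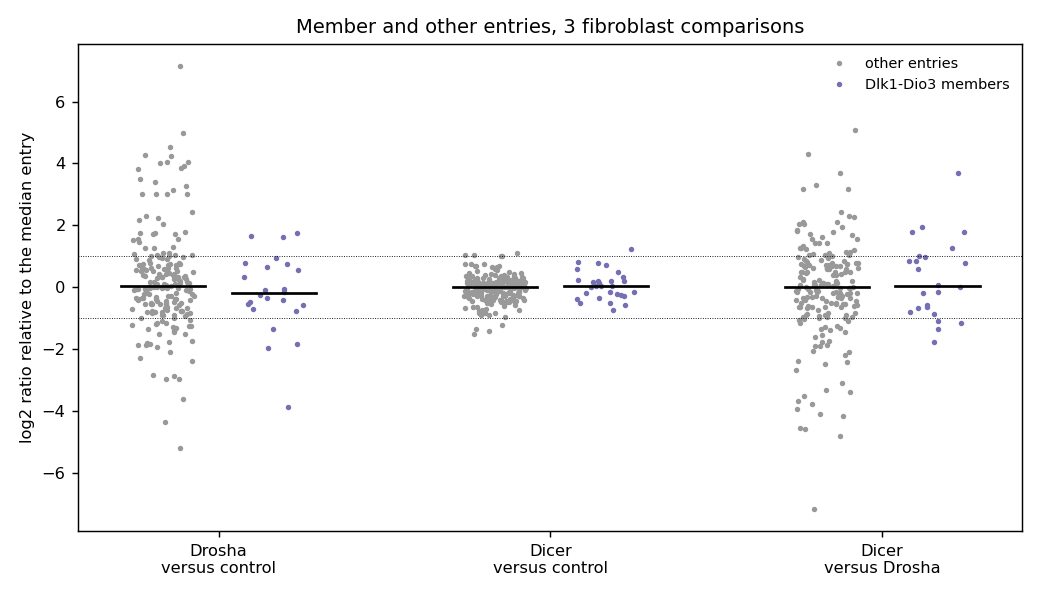
Log2 ratio relative to the median entry for Dlk1-Dio3 members and for all other entries in the 3 fibroblast comparisons, 1 point per entry with horizontal spread added for display and a black line at each median. Member medians are -0.20, 0.04 and 0.03, and both sets spread far less in Dicer against control than in the comparisons that use the Drosha library.

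The spread among members was near that of the other entries. Among entries at 100 or more in both libraries the SD of the Drosha to control ratio was 1.07 over 18 members and 1.40 over 113 others, and that of the Dicer to control ratio was 0.38 over 24 members and 0.29 over 151 others. Mesenchymal miRNAs (miR-143, miR-145, miR-199a, miR-199b, miR-214 and miR-152) are part of the fibroblast list above and had a median ratio of -0.70 in Drosha against control over 10 entries, 3 of them at least 1 log2 unit lower, and of 0.08 in Dicer against control. The imprinted Gnas-region pair miR-296 and miR-298 had a median of -0.01 in Drosha against control over 3 entries, 1 of them at least 1 log2 unit higher. Of the Sfmbt2-cluster families (miR-297, miR-466, miR-467 and miR-669) 0 entries could be compared in Drosha against control. The short hairpins miR-320 (4.98) and miR-484 (2.23, 1.97 to 2.49) were both higher in Drosha than control, and no member's point ratio reached theirs. The intervals of some members, such as miR-376a (0.73 to 2.74) and miR-379 (1.14 to 2.17), overlapped that of miR-484, so the order there is not resolved. Differences between these lists were not tested, since each group has 1 library.

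A preset list of other miRNAs of the same region had 17 entries in the fibroblast libraries, in addition to the 41 of the members. Over 12 compared entries their median ratio in Drosha against control was -0.32, with 1 at least 1 log2 unit lower and 1 higher. The lower one was miR-770-5p, from the Meg3 end of the region, at 364 in control, 26 in Drosha and 178 in Dicer (-2.84 in Drosha, on 2 reads). The higher one was miR-668, at 36, 65 and 22 (1.78, -0.13 to 3.45, on 5 reads). miR-540-3p, at 982, 401 and 967, was the most abundant of the list and lay at -0.35 (-0.94 to 0.18). In Dicer against control the median over 13 entries was -0.39, with 0 past 1 log2 unit in either direction.

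Strand use could be followed where both strands of a hairpin were listed. For miR-409 the minor strand was miR-409-5p, at 411 against 3324 for miR-409-3p in control, which is 11.0% of the hairpin (9.15 to 13.1%). In Drosha it was 181 against 439, or 29.2% (17.0 to 44.1%), and in Dicer 252 against 2637, or 8.72% (6.83 to 10.9%). The Drosha interval lay above both others, and the ratio to control was -1.98 for miR-409-3p and -0.24 (-1.16 to 0.56) for miR-409-5p. For miR-300 the star strand held 20.5% in control (17.4 to 23.8%), 31.1% in Drosha (22.3 to 40.9%) and 18.8% in Dicer (15.2 to 22.9%), with the Drosha and control intervals overlapping. miR-127* held 7.53%, 8.33% and 7.53% of miR-127, and miR-431* held 9.52%, 6.13% and 8.57% of miR-431, with overlapping intervals in each case.

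**Figure D4:**
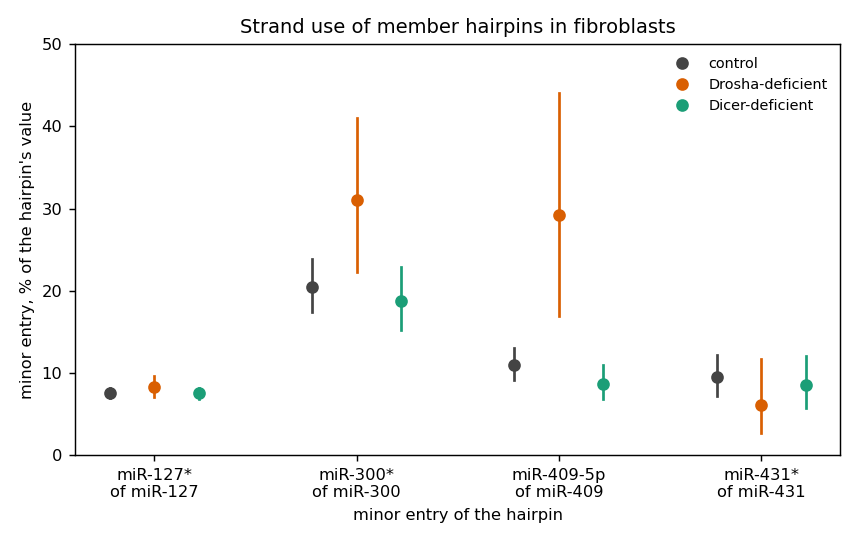
Share of the minor entry in the summed value of its hairpin (percent) for 4 member hairpins in the control, Drosha and Dicer fibroblast libraries, with points for the share and bars for the 95% exact binomial interval. The share of miR-409-5p is 11.0%, 29.2% and 8.72%, while that of miR-127* stays between 7.53% and 8.33%.

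The remaining pairs were nearly 1-sided or thinly covered. miR-337-3p held 0.782% of its hairpin in control and 0.385% in Dicer, and miR-434-3p 5.12% and 5.21%, each on 3 to 6 reads of the minor strand, and neither was listed in Drosha. miR-299* held 25.7% in control (13.9 to 40.3%) and 34.1% in Dicer (21.2 to 48.8%). miR-376a* held 9.73%, 12.6% and 8.24% of miR-376a in control, Drosha and Dicer, on 3, 2 and 4 reads, and miR-369-3p held 30.6% in control and 21.2% in Dicer, on 3 and 4 reads. Unequal change of the 2 strands was common in the Drosha library beyond these members: 19 of 37 hairpins with both strands compared differed by at least 1 log2 unit between strands, 1 of them among the 4 members, against 1 of 44 in Dicer against control. With at least 10 reads behind every value it was 4 of 8 hairpins, of which miR-409 (1.74 log2 units) was the member.

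The T cell lists held few of these miRNAs. None of the 34 names was listed in the 6 DN3 and Treg libraries, whose lists give distinct sequences down to a value of 10 each. CD4 Drosha listed none either, but its lowest listed value was 526, and CD4 Dicer, whose lowest was 645, listed miR-127 alone at 984, or about 6 reads. Among its 273 entries CD4 control listed 14 member entries, against 38 among 314 in MEF control. They came from 11 names and summed to 0.105% of the CD4 control library (0.0857 to 0.127%). miR-127 stood at 360, miR-541 at 170, miR-337-5p and miR-382 at 100 each, miR-409-3p at 70 and miR-134 at 50. miR-370, miR-409-5p, miR-431 and miR-665 stood at 30 each and miR-127*, miR-154, miR-431* and miR-487b at 20, the lowest value of that list, or 2 reads if 1 read is worth 10.

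Of the 11 member entries at 1000 or more in MEF control 10 were listed in CD4 control, miR-300 (1851) being the exception. The other 4 listed there were lower in MEF control: miR-409-5p at 411, miR-154 at 364, miR-431* at 204 and miR-487b at 11, while miR-300* (476) and miR-379 (375) were not listed in CD4 control. The CD4 control values of these 10 were 0.908 to 3.58% of their MEF control values, with a median of 1.78%. Over all 14 listed entries the range was 0.908 to 181.8% and the median 2.41%, with miR-154 at 5.49%, miR-409-5p at 7.30%, miR-431* at 9.80% and miR-487b, on 2 and 3 reads, at 181.8%. These percentages leave out the members that CD4 control did not list. How many of all MEF control entries at 1000 or more were listed in CD4 control was not counted. The 10 of 11 therefore does not set the members apart from other abundant entries. The 4 fibroblast-list entries in CD4 control, of 12 in MEF control, stood at 152800 (miR-22, 27.4% of its MEF value), 30 (miR-143, 0.253%), 20 (miR-214, 0.842%) and 20 (miR-10b, 3.74%). Without miR-22 that list took 0.00698% of CD4 control and 1.97% of MEF control, and its part in the CD4 values was not tested. 3 further miRNAs of the region, miR-341 (40), miR-485 (20) and miR-666-5p (20), were listed there as well.

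**Figure D5:**
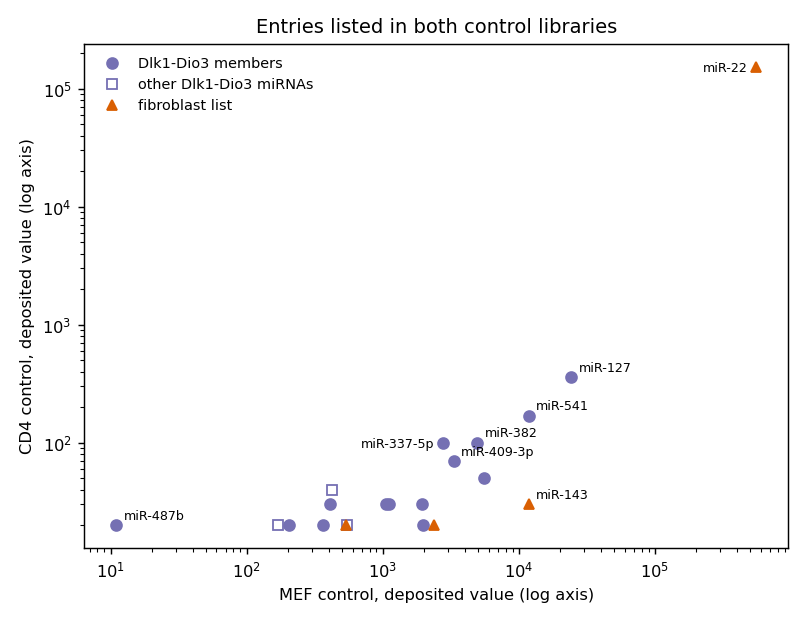
Deposited values of entries listed in both control libraries, MEF control on the horizontal and CD4 control on the vertical log axis, for members (filled circles), other Dlk1-Dio3 miRNAs (open squares) and fibroblast-list miRNAs (triangles). miR-127 (24331 and 360) and miR-541 (11800 and 170) are the highest members on both axes, while miR-143 is at 11840 and 30.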

How the data were processed

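Small RNA of 12 mouse libraries (4 cell types, 3 genotypes, 1 library each) was listed by miRNA. Adaptors were clipped and reads mapped to miRNA loci, per the labels. No aligner, miRBase release or genome build is named in the labels or headers. The deposited values were treated as scores: whole numbers summing to about 1000000, normalised mapping counts per the file headers, which the authors rounded. For CD4 and fibroblast libraries each entry is a mature miRNA, and for DN3 and Treg libraries a distinct sequence. The file of genic small RNAs of DN3 control was not used.

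Groups came from the sample titles. Implied reads were found as the library size at which most values up to 1000 are whole multiples of 1 read, within 0.6, with at most 5 reads at the lowest value. Log2 ratios used a pseudocount of 0.5, a summed value of at least 50 and the median entry as reference. Intervals are 95% exact (Clopper-Pearson for shares and ratios, Poisson for levels). The procedure was run on simulated data with cleaner read steps than the Dicer library and fewer changed entries than the Drosha comparisons. That run does not cover these cases. Python 3.11.15, numpy 2.4.6 and scipy 1.17.1 were used. Members and lists were chosen with earlier results of these data known. Named were the 12 highest entries in MEF control, the 5 highest and 5 lowest ratios per comparison with at least 10 reads in both libraries, entries missing from a fibroblast library, strand pairs with at least 50 reads in control and entries in T cell lists. Other entries are named only to complete a count. Alternatives covered scaling, pseudocount, filter, missing values and summed arms.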

Additional observations from a re-analysis of the deposited data

Results flagged for a closer look

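miR-127 was the only member listed in a deletion library of T cells, and its Dicer to control ratio of plain values had opposite signs in the 2 cell types in which it could be computed. In CD4 cells the value was 360 in control and 984 in Dicer, a log2 ratio of 1.45 (-0.11 to 2.69) on about 36 and 6 reads. In MEF it was 24331 and 21937, a log2 ratio of -0.15 (-0.20 to -0.10). The sign in MEF depends on the scaling, since relative to the median entry the ratio there was 0.04 (-0.01 to 0.09). The difference was not tested, each cell type has 1 library per genotype, and the CD4 Dicer list holds no value below 645, so a lower value of miR-127 could not have been listed there. In CD4 Dicer the read steps made 68% of the low values whole, so its read number is approximate.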

How the results depend on the processing

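With miR-127 left out, the members' share was 3.78% in control, 1.76% in Drosha and 3.03% in Dicer, and without starred entries 6.12%, 3.86% and 5.17%. Without miR-22 and miR-320 in the total it was 14.9%, 16.5% and 13.5%, which puts Drosha above control. In Drosha against control the members' median was -1.13 with library totals (14 lower and 0 higher of 24 members) and -0.35 with totals without miR-22 and miR-320. It was -0.073 with at least 10 reads in both libraries (16 members) and -0.49 with arms summed (21 members). Summed arms count an arm that a library does not list as absent. With no filter on low values 4 of 26 members were lower and 5 higher. In Dicer against control the median was -0.15 with library totals. There 1 of 37 members was lower with no filter and 0 of 26 were higher with at least 10 reads. In Dicer against Drosha the median was 0.67 with library totals (1 lower and 11 higher of 24 members) and -0.22 with at least 10 reads (2 lower and 5 higher of 16). It was 0.60 with floors in place of missing values (4 lower and 9 higher of 28) and 0.77 with arms summed (21 members). Only with library totals were such counts set against all entries. The cause of these shifts was not tested. The other 45 values lay within 0.1 log2 units (medians) or a factor of 1.5 (counts) of those reported. They include 7 higher members in Dicer against Drosha with no filter (of 26) and with arms summed (of 21), beside the 5 of 24 reported. No paired analysis was possible because each group has 1 library, and for the same reason no replicate could be left out. Depth limits the Drosha library most, where 16 member entries had at least 10 reads.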
